A study of Mus musculus with 5 samples.

Results

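The 40 genes described here encode proteins that copy DNA in S phase and the enzymes that make its building blocks. They were taken by symbol from the deposited table of gene expression values, in which 1 row was found for each of the 40 among 55401 gene IDs. They comprise 12 genes of the replicative helicase, 4 of origin licensing, 6 of the sliding clamp and its loader, 6 of the DNA polymerases and primase, 3 of replication protein A, 2 of Okazaki fragment maturation, 4 of nucleotide supply and 3 of chromatin copying. The study exposed wild-type mouse bone marrow mesenchymal stem cells (BMSCs), which attach to plastic and can become bone, cartilage or fat cells, to continuous negative pressure (NP). Cells were cultured for 72 h, and pressures of -80, -120, -160 or -200 mmHg were held for 48 h, with a culture at 0 mmHg as the control. All groups share the WT genotype, and no agent other than pressure is named for any of them. The age, sex and strain of the animals, and whether marrow was pooled, were not given in the sources used here. Each of the 5 conditions had 1 RNA-seq library.

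Replication is prepared in G1, when the origin recognition complex, Cdc6 and Cdt1 load the ring of Mcm2 to Mcm7 onto DNA. Cdc45 and the GINS complex then turn this ring into an active helicase, and primase, the clamp Pcna and the polymerases follow behind it. Most of these genes are transcribed in bursts at the G1/S boundary under E2F factors, so that their RNA in a culture is widely used as a measure of the share of cells that are cycling. In bulk RNA, fewer cycling cells and less RNA per cycling cell cannot be told apart.

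Since each condition had 1 library, differences have no replicate check and no p-value is given. Values are FPKM, fragments per kilobase of exon per unit of sequencing depth, which allows genes to be compared per length. Whole reads were recovered from them, and library totals ranged from 16600622 to 18398911 reads. A gene was counted as lower or higher when its log2(FPKM + 1) differed by at least 1 from the control, among the 12113 genes whose mean over the 5 libraries reached 1 FPKM. Fell and rose are used here only for such a difference from the 1 control library. Intervals are 95% exact intervals and cover the counting of reads only. The control library also stood apart in genes outside replication. It held 2493 reads of the Y-linked genes Kdm5d, Uty, Ddx3y and Eif2s3y against 0 reads in each pressure library, where Xist had 12 to 20 reads. In every comparison with that library, another source of its cells and the pressure itself cannot be told apart.

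Of 12 stromal markers 10 had a mean of at least 1 FPKM, and Lepr and Nt5e did not. The summed level of the 12 was 1968 to 2235 FPKM under pressure and 3472 FPKM in the control, but the markers did not differ in 1 direction. Most of the lower sum lay in Ly6a, with 622 to 828 FPKM under pressure and 1740.5 FPKM in the control, and Col1a1, with 435 to 564 FPKM and 929.6 FPKM. Also lower in every pressure library were Cxcl12 (129 to 140 FPKM, control 201.2 FPKM), Pdgfrb (47.3 to 54.3 FPKM, control 64.9 FPKM), Vcam1 and Cd44. Pdgfra was higher in every pressure library, at 63.7 to 71.5 FPKM against 44.3 FPKM in the control, as were Col1a2 (463 to 574 FPKM, control 453.8 FPKM), Eng, Nt5e, Lepr and Thy1. Thy1 stood at 1.001 to 1.83 FPKM under pressure and 0.0181 FPKM in the control. Of 9 macrophage markers 3 were measured, with a summed level of 66.9 to 74.8 FPKM under pressure and 27.5 FPKM in the control. Most of this sum was Cd14, at 50.3 to 55.6 FPKM under pressure and 23.6 FPKM in the control. Itgam was at 0 in all 5 libraries, and Ptprc, Adgre1, Csf1r, Cx3cr1 and Mrc1 reached at most 0.427 FPKM. Of 8 granulocyte markers 2 were measured (24.1 to 31.2 FPKM in sum under pressure, 8.99 FPKM in the control, most of it Camp). Mpo, Ltf and S100a9 were at 0 throughout. Of 5 osteoclast markers 1 was measured, with a list sum of 1.27 to 2.35 FPKM under pressure and 78.1 FPKM in the control, nearly all of it Ctsk. Erythroid, lymphoid, endothelial and epithelial lists had 0 measured members. The part of these cell types in the results below was not tested.

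Most replication genes were lower under every pressure than in the control, and none was higher by the size rule. All but 1 member passed the filter on low values. Of the 39 measured members 18, 20, 11 and 15 fell at -80, -120, -160 and -200 mmHg. Over all 12113 genes the percentages that were lower were 6.89%, 6.45%, 6.03% and 6.38% at these pressures. The members that were higher numbered 0 at each pressure, where 10.7%, 8.85%, 9.59% and 9.1% of all genes were higher. The same 11 members were lower at all 4 pressures, against 4.46% of all genes. Neither lower nor higher at any pressure were 19 of the 39 members and 9456 of all 12113 genes. The number lower at all 4 pressures depends on the rule. It was 15 with a pseudocount of 0.1 (5.53% of all genes), 4 with a pseudocount of 5 (2.72%) and 20 with a 1.5-fold rule (10.4%). By an exact binomial test of the reads, which compares libraries and not conditions, it was 34 (23.96%). Without regard to size, 37 of 39 members lay below the control in all 4 pressure libraries, against 33.3% of all genes. The median member stood at 44.6%, 45.6%, 58.0% and 50.7% of its control FPKM at -80, -120, -160 and -200 mmHg. Averaged over the 4 pressures, the median log2 difference of the members was -0.83, while that of all genes was 0.15.

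**Figure D1:**
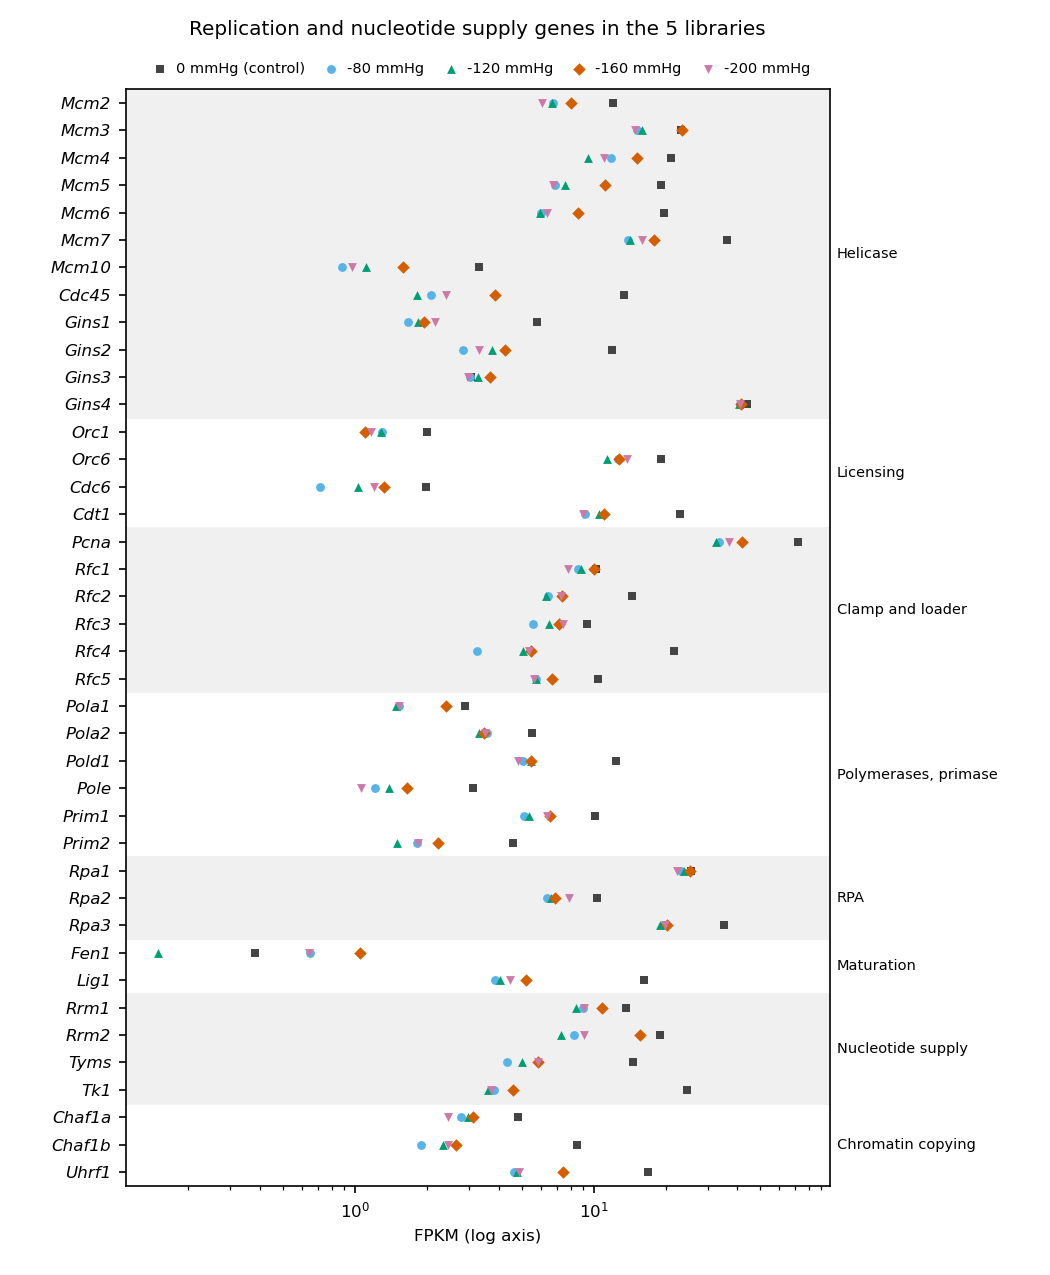
FPKM of the 40 genes on a log axis, grouped by role, with 1 symbol per library. The control squares lie to the right of the pressure symbols for most genes, while Gins3, Gins4 and Rpa1 show all 5 libraries together.

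**Figure D2:**
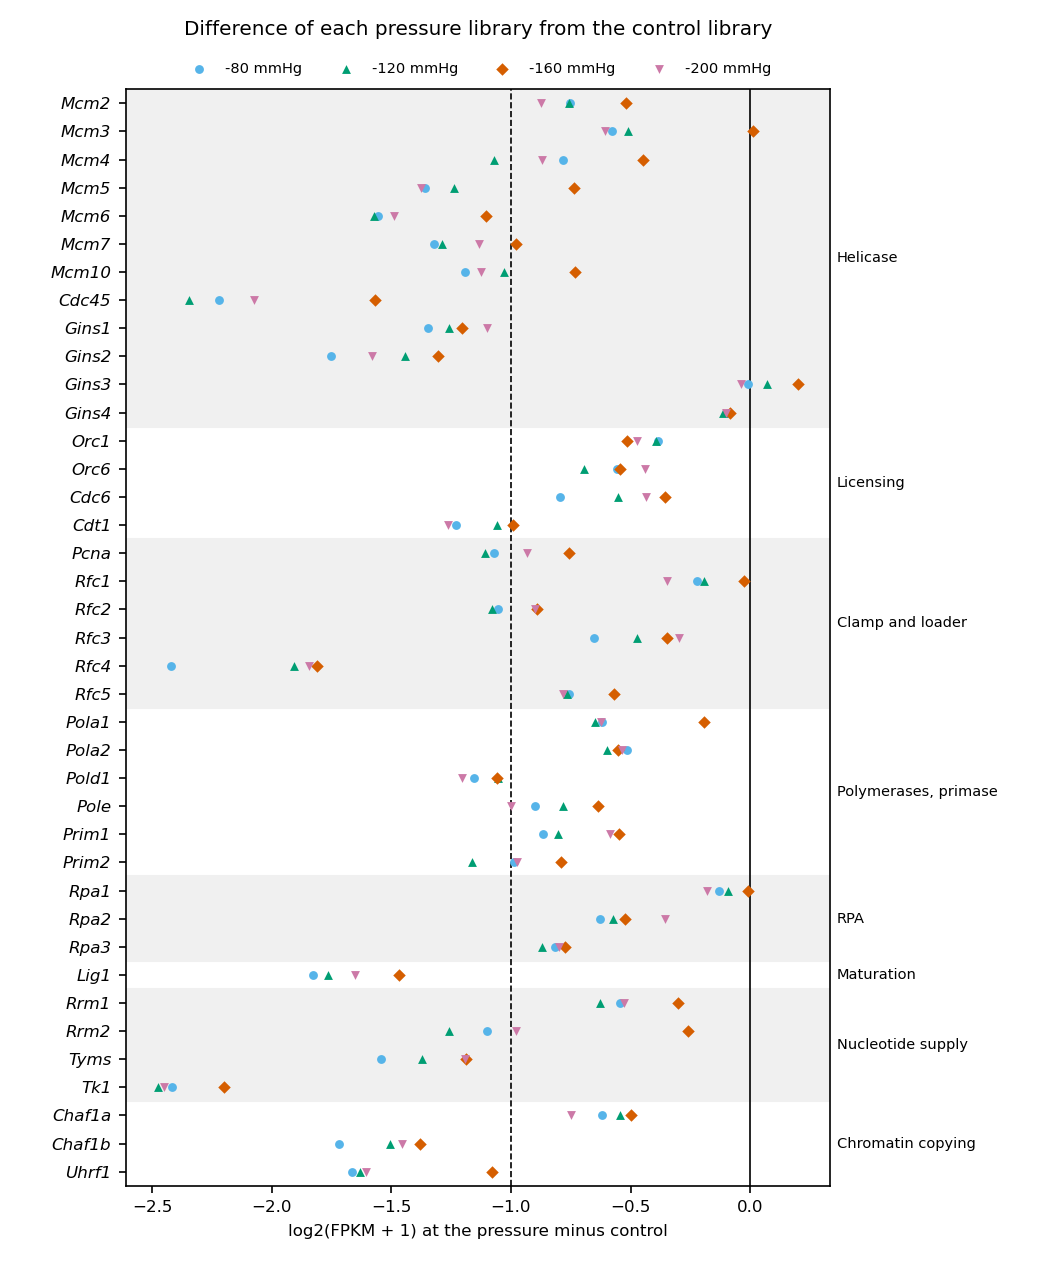
Difference of log2(FPKM + 1) between each pressure library and the control for the 39 measured genes, grouped by role. The solid line marks 0 and the dashed line the size rule of -1. Tk1, Cdc45 and Rfc4 lie farthest to the left, and the -160 mmHg diamonds lie nearest to 0 for most genes.

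The promoters of the members were read from RefSeq (GRCm38.p6) as windows of 300 bases, from 250 bases before to 50 bases after each annotated start, and 33 of the 40 genes had an entry. An E2F core was searched as TTCGCGC, as TTGGCGC, as TTCCCGC or as TTGCCGC on both strands, with overlapping matches counted. The sequences below show the member with the most matches (Mcm6), the ring gene that was level with the control at -160 mmHg (Mcm3), the gene that stood out most at -160 mmHg (Rrm2) and the gene with the largest fall (Tk1). Each is written 5′ to 3′ on the strand of its gene, with matches to the E2F core in capitals.
Mcm6 (chr1:128359656-128359955, minus strand, 5 matches): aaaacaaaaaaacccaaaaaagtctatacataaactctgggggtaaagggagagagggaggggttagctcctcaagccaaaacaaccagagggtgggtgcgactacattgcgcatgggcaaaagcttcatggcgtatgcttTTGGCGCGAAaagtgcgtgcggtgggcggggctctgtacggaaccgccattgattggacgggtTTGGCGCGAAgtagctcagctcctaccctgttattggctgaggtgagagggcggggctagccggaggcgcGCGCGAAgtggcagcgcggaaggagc
Mcm3 (chr1:20820263-20820562, minus strand, 3 matches): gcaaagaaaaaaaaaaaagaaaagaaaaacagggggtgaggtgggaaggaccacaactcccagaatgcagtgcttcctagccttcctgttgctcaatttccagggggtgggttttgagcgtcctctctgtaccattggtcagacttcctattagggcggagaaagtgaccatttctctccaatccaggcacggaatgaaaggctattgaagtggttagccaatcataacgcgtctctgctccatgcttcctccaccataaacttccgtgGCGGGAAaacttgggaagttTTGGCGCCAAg
Rrm2 (chr12:24708004-24708303, plus strand, 1 match): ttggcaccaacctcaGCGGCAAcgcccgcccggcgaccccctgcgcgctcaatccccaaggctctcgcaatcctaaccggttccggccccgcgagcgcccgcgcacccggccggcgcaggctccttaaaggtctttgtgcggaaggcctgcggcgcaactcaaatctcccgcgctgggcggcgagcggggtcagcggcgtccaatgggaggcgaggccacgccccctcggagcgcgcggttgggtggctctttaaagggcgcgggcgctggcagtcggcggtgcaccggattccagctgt
Tk1 (chr11:117825965-117826264, minus strand, 0 matches): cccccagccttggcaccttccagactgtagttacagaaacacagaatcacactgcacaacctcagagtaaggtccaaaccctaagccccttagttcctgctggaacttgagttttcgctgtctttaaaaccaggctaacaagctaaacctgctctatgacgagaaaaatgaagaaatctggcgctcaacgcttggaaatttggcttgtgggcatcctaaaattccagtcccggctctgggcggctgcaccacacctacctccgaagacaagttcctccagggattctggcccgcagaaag

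A core was found in 23 of the 33 genes (69.7%, exact 95% interval 51.3% to 84.4%) and, on the strand of the gene alone, in 14 (42.4%). On both strands it was found in 9.57% of all 32851 promoter windows in the table and in 20.04% of the 8781 tested genes with an entry, of which 11.07% had one on the strand of the gene. The median GC content was 60.7% in the members' windows, 61.0% in those of tested genes and 52.7% in all windows, so base composition was close to that of tested genes only. The CCAAT box (CCAAT on both strands), bound by NF-Y, was found in 66.7% of the members and 43.6% of tested genes. The CHR element of late cell cycle genes (TTTGAA on both strands) was found in 12.1% of the members and 14.04% of tested genes. Members with and without a core had similar values. The mean log2 difference over the 4 pressures had a median of -0.76 in the 22 measured members with a core and -0.85 in the 10 without one, and 6 and 3 of them were lower at all 4 pressures. The median difference between -160 mmHg and the other 3 pressures was 0.24 with a core and 0.23 without. A match is a string of letters and not a site shown to be bound, and its absence from this window, as in Tk1, says nothing about sites elsewhere.

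Among the helicase genes 4 of 12 fell at all 4 pressures, and their median log2 difference was -1.26, -1.16, -0.73 and -1.11 at -80, -120, -160 and -200 mmHg. Cdc45 (chr16:18780447-18811987, GRCm38), which joins the Mcm ring when an origin fires, had the largest difference in this role. Its levels were 13.3, 2.07, 1.82, 3.84 and 2.40 FPKM at 0, -80, -120, -160 and -200 mmHg. All pressure libraries were far below the control, and -160 mmHg was the highest of the 4. Its reads per library total were 0.137 (95% interval 0.111 to 0.167) of the control at -120 mmHg and 0.288 (0.248 to 0.334) at -160 mmHg. The 6 subunits of the Mcm2 to Mcm7 ring, which sit in it in equal numbers, did not move by equal amounts. Mcm6 fell at all 4 pressures, with 19.7, 6.03, 5.95, 8.62 and 6.36 FPKM from 0 to -200 mmHg. Mcm5 and Mcm7 fell at 3 pressures and Mcm4 at 1. Mcm3 passed the rule at none. It stood at 23.2, 15.2, 16.0, 23.4 and 14.9 FPKM, so that the -160 mmHg library was level with the control. Mcm2, with 6.09 to 8.07 FPKM under pressure and 12.01 FPKM in the control, also passed it at none. With these unequal differences Mcm3 was 2.34 to 2.72 times as abundant as Mcm6 per length under pressure, and 1.18 times in the control. Mcm10, a loading factor for polymerase alpha, had 0.883 to 1.59 FPKM under pressure and 3.31 FPKM in the control, and fell at 3 pressures.

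The 4 GINS genes encode a complex with 1 copy of each subunit, yet they split into 2 pairs. Gins1 fell at all 4 pressures, to 1.67 to 2.16 FPKM against 5.77 FPKM in the control, on 42 to 59 reads against 161 reads. Gins2 fell to 2.83 to 4.23 FPKM, against 11.9 FPKM in the control, but 67.3% of its exon bases are also exons of Gse1 on the other strand. Gins3 stood at 2.96 to 3.67 FPKM under pressure and 3.07 FPKM in the control. Its mean log2 difference of 0.05 turned negative under scaling to a trimmed mean of log ratios (-0.08) and under quantile normalization (-0.14). Gins4 stood at 40.7 to 41.5 FPKM under pressure and 44.1 FPKM in the control, with no exon base shared with another gene. Its level was 19.0 to 24.8 times that of the lowest GINS gene under pressure and 14.4 times in the control. Gins3 and Gins4 were thus the helicase genes whose 5 libraries lay closest together.

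The licensing genes showed 0 of 4 members lower at all 4 pressures. Cdt1, which brings the Mcm ring to the origin, fell at 3 pressures and just missed the rule at -160 mmHg (log2 difference -0.99). Its levels from 0 to -200 mmHg were 23.0, 9.23, 10.5, 11.0 and 8.98 FPKM. Gmnn (geminin), the protein that binds and blocks Cdt1 after S phase begins, fell at all 4 pressures, to 4.35 to 7.10 FPKM against 21.1 FPKM in the control. The Cdt1 to Gmnn ratio of FPKM was 1.503 to 2.12 under pressure and 1.09 in the control. Cdc6, the loader ATPase, had 0.713 to 1.33 FPKM under pressure and 1.97 FPKM in the control. The origin subunits Orc1, at 1.10 to 1.30 FPKM against 1.9997 FPKM, and Orc6, at 11.4 to 13.8 FPKM against 19.1 FPKM, passed the rule at no pressure.

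Pcna, the sliding clamp that tethers polymerases to DNA, was the most abundant member in the control. It stood at 71.5, 33.5, 32.6, 41.8 and 37.0 FPKM from 0 to -200 mmHg and fell at -80 and -120 mmHg. The genes of replication factor C, the 5-subunit loader that opens the clamp, ranged widely. Rfc4 (chr16:23113943-23127737), a small subunit, fell at all 4 pressures with 21.8, 3.25, 5.07, 5.48 and 5.35 FPKM from 0 to -200 mmHg. It was the highest of the 5 loader genes in the control and the lowest in every pressure library. At -80 mmHg its interval of reads per library total lay below those of the other 3 pressures, the 1 such case among the measured members. The share of all genes is not given for this count, so it describes Rfc4 only. Rfc1, the large subunit, stood at 7.81 to 10.02 FPKM under pressure and 10.2 FPKM in the control, and was the highest of the 5 in every pressure library. Rfc2 fell at 2 pressures (6.33 to 7.34 FPKM under pressure, 14.5 FPKM in the control), and Rfc3 (5.59 to 7.45 FPKM, control 9.38 FPKM) and Rfc5 (5.62 to 6.70 FPKM, control 10.4 FPKM) at none.

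Among the polymerase and primase genes 1 of 6 fell at all 4 pressures. This was Pold1, the catalytic subunit of the lagging-strand polymerase delta, with 12.4, 5.03, 5.47, 5.46 and 4.83 FPKM from 0 to -200 mmHg. Pole, the leading-strand catalytic subunit, had 1.06 to 1.65 FPKM under pressure and 3.11 FPKM in the control. The 2 primase genes differed in the same direction. Prim1 stood at 5.08 to 6.58 FPKM under pressure and 10.1 FPKM in the control, and Prim2 at 1.49 to 2.23 FPKM and 4.58 FPKM. Reads of Prim2 per library total were 0.326 to 0.487 of the control. With 1 added to each FPKM, Prim2 passed the rule at -120 mmHg only. The polymerase alpha genes Pola1 (1.48 to 2.41 FPKM under pressure, 2.90 FPKM in the control) and Pola2 (3.31 to 3.57 FPKM, control 5.53 FPKM) passed it at none.

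Replication protein A coats single-stranded DNA in repair as well as in replication, and 0 of its 3 genes passed the rule at any pressure. Rpa1, its large subunit, had 25.6, 23.3, 23.9, 25.4 and 22.4 FPKM from 0 to -200 mmHg, so the 5 libraries lay close together. Rpa2 stood at 6.35 to 7.86 FPKM under pressure and 10.4 FPKM in the control. Rpa3 stood at 18.9 to 20.2 FPKM under pressure and 35.3 FPKM in the control.

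Of the 2 maturation genes, Lig1, the ligase that seals Okazaki fragments, fell at all 4 pressures. Its levels were 16.2, 3.84, 4.06, 5.22 and 4.46 FPKM from 0 to -200 mmHg. Fen1, the flap nuclease that acts just before it, was the 1 member below the filter, with 6 to 43 reads per library. It stood at 0.149 to 1.04 FPKM under pressure and 0.381 FPKM in the control. In the annotation 84.2% of its exon bases are also exons of Tmem258 or Gm10143 on the other strand. How reads over 2 genes were counted was not given in the sources used here. The level of Fen1 is therefore uncertain. Chaf1a shares 52.5% of its exon bases with Ubxn6, Gins2 the share given above, and 5 further members (Rfc2, Rfc4, Mcm7, Orc1 and Rfc5) between 10.7% and 15.1%.

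The nucleotide supply genes held the largest difference of all members. Tk1 (chr11:117815526-117826092), the cytosolic thymidine kinase of the salvage route, had 24.7, 3.804, 3.62, 4.59 and 3.70 FPKM from 0 to -200 mmHg. The 4 pressure libraries lay close together, and their reads per library total were 0.147 to 0.186 of the control. Tyms, the thymidylate synthase of the de novo route, fell at all 4 pressures, to 4.34 to 5.85 FPKM against 14.6 FPKM in the control. Ribonucleotide reductase makes deoxyribonucleotides from a large subunit, Rrm1, and a small subunit, Rrm2, whose protein is made in S phase and destroyed afterwards. Rrm2 (chr12:24708241-24714146) stood at 18.9, 8.31, 7.33, 15.7 and 9.13 FPKM from 0 to -200 mmHg. Rrm1, at 13.6, 9.03, 8.47, 10.9 and 9.14 FPKM, varied less and passed the rule at no pressure. Rrm2 exceeded Rrm1 per length at -160 mmHg (ratio 1.44) and in the control (1.39), while the ratio was 0.865 to 0.9995 at the other 3 pressures.

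In chromatin copying, Chaf1b and Uhrf1 fell at all 4 pressures. Chaf1b, a subunit of the chromatin assembly factor that places histones behind the fork, stood at 1.89 to 2.65 FPKM under pressure and 8.499 FPKM in the control. Its partner Chaf1a stood at 2.45 to 3.11 FPKM under pressure and 4.79 FPKM in the control, short of the rule at each pressure. Uhrf1, which recruits the maintenance DNA methyltransferase to newly copied DNA, had 16.8, 4.61, 4.75, 7.43 and 4.85 FPKM from 0 to -200 mmHg.

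The pressure libraries were then compared with one another, which does not involve the control. The level was highest at -160 mmHg in 32 of 39 members, against 25.4% of all genes, and at -80, -120 and -200 mmHg in 2, 1 and 4 members, where 26.8%, 24.2% and 23.6% of all genes were highest. The lowest of the 4 values was at -160 mmHg in 1 member, Orc1, against 18.4% of all genes. It was at -80, -120 and -200 mmHg in 13, 14 and 11 members, against 25.8%, 28.1% and 27.5% of all genes. The median log2 difference between -160 mmHg and the mean of the other 3 pressures was 0.24 over the members and 0.01 over all genes. In 14 members the counting interval at -160 mmHg lay above those of the other 3 pressures, against 2.11% of all genes. For each of the other 3 pressures this count was 0 among the members, where the shares of all genes were 2.67% at -80 mmHg, 2.17% at -120 mmHg and 2.3% at -200 mmHg. The difference was of modest size, and the largest among the members was a log2 difference of 0.85 in Rrm2. Between -160 mmHg and the mean of the others 0 members passed the size rule. Over all genes 0.66% passed it in either direction, so this count does not set the members apart. There is 1 library at -160 mmHg, so a difference of that culture or library and an effect of that pressure cannot be told apart. Summed markers in that library were 66.9 FPKM for macrophages and 1968 FPKM for stromal cells, against 68.7 to 74.8 FPKM and 2000 to 2235 FPKM at the other 3 pressures.

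Rrm2 stood out most at -160 mmHg, with reads per library total 1.89 times (95% interval 1.72 to 2.07) those of the other 3 pressures together. Cdc45 followed with 1.82 times (1.54 to 2.15), Mcm10 with 1.61 times (1.35 to 1.91) and Pola1 with 1.59 times (1.39 to 1.80). All 6 genes of the Mcm2 to Mcm7 ring were among the 14, and their ratios ran between 1.21 for Mcm7 and 1.58 for Mcm5. Pcna (1.21), Rrm1 (1.22), Rfc1 (1.19) and Uhrf1 (1.57) completed the set. Orc1 (0.883, 0.659 to 1.17), Orc6 (1.008, 0.912 to 1.11), Gins1 (1.03, 0.729 to 1.42), Gins4 (1.012, 0.940 to 1.09), Pola2 (0.999, 0.900 to 1.11) and Rpa2 (0.989, 0.874 to 1.12) had ratios close to 1 or below it, with intervals that include 1. The interval also included 1 for Gins3, Rpa3, Pold1, Rfc3 and Rfc4. For Gins1, with 50 reads at -160 mmHg, it also holds the ratio of Mcm7, as it does for Gins3, Rfc3 and Rfc4. A difference of that size was thus not detectable in these genes at this depth. In all, the interval lay wholly above 1 in 28 of 39 members and wholly below 1 in 0. The share of all genes is not given for this count, which depends on depth, so it describes these members only.

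**Figure D3:**
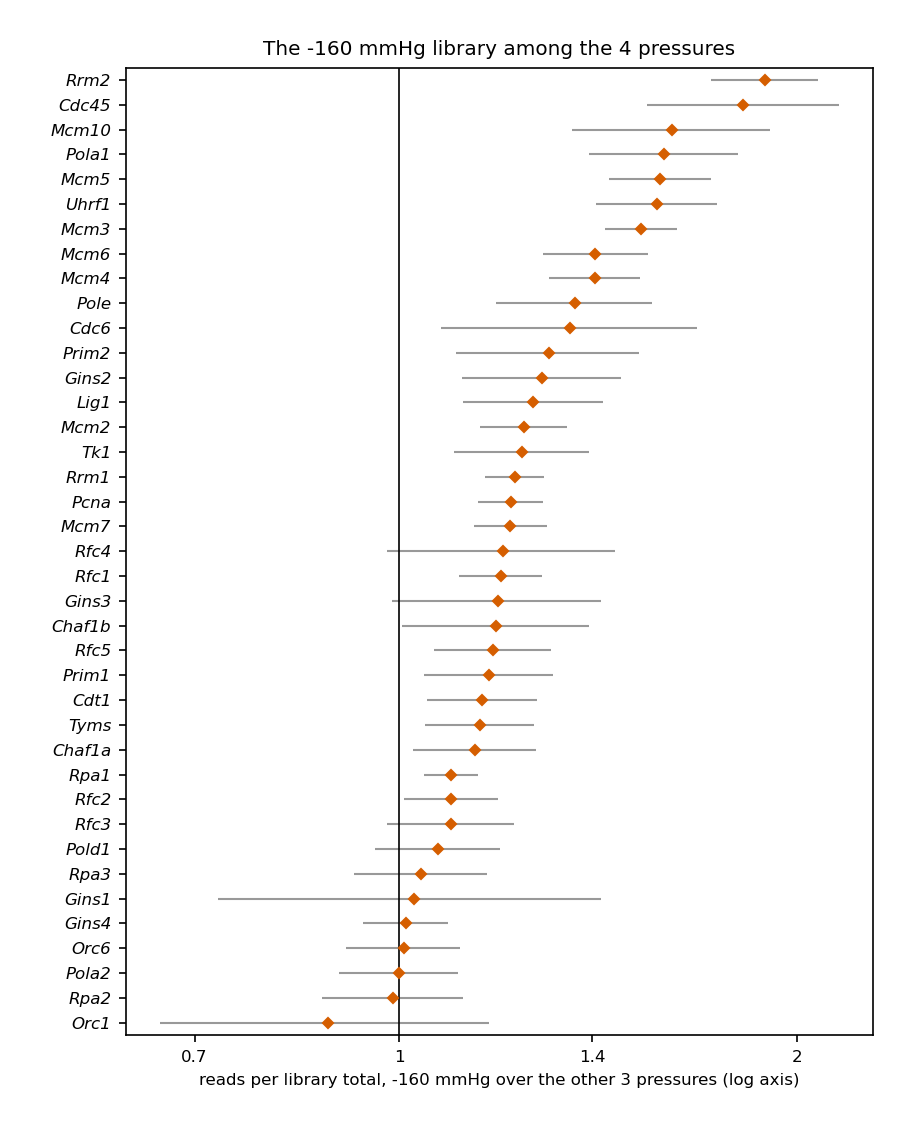
Reads per library total at -160 mmHg divided by those of the other 3 pressures together, for the 39 measured genes in falling order on a log axis. Bars are 95% exact Clopper-Pearson intervals for the counting of reads only, and the line marks a ratio of 1. Rrm2 and Cdc45 lie at the top with 1.89 and 1.82, and Orc1 at the bottom with 0.883.

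Related gene lists were set beside the members and are to be read against the 4.46% of all genes that were lower at all 4 pressures. Counts of genes that passed the rule at none are to be read against 9456 of all 12113 genes. Of 30 other replication factors 26 were measured, 2 of these fell at all 4 pressures, 23 passed the rule at none, and the median of the mean log2 differences was -0.27. At 7.69% of the other replication factors, 6.25% of the other nucleotide supply genes and 3.57% of the G1/S regulators, the shares lower at all 4 pressures were near that of all genes. The 2 replication factors were Top2a, which untangles copied DNA (8.23 to 13.4 FPKM under pressure, 30.3 FPKM in the control), and Dscc1, part of an alternative clamp loader (0.325 to 0.756 FPKM, control 3.12 FPKM). Dscc1 reached the filter through the control alone, so that its place in this count rests on that library. Of 32 other nucleotide supply genes, all measured, 25 passed the rule at none, the median was -0.15, and 2 fell at all 4 pressures. These were Dut, the dUTPase (12.5 to 14.1 FPKM under pressure, 39.9 FPKM in the control), and Dtymk, the thymidylate kinase (11.7 to 12.7 FPKM, control 31.4 FPKM). Samhd1, which breaks down deoxyribonucleotides, stood at 12.2 to 12.8 FPKM under pressure and 14.3 FPKM in the control. Rrm2b, the small reductase subunit used outside S phase, ran the other way from Rrm2, with 2.76 to 3.76 FPKM under pressure and 1.21 FPKM in the control, and rose at -160 mmHg only.

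Of 32 G1/S regulators 28 were measured, 1 of them fell at all 4 pressures (Gmnn, given above), 23 passed the rule at none, and the median was -0.16. E2f1 stood at 8.33 to 9.95 FPKM under pressure and 16.0 FPKM in the control, and Ccne1 at 4.28 to 5.70 FPKM and 7.55 FPKM. Ccne2 stood at 1.14 to 1.90 FPKM under pressure and 1.51 FPKM in the control, and E2f8 was below the filter (0.508 to 0.832 FPKM, control 1.34 FPKM). The kinase that fires origins is made of Cdc7, which fell at 2 pressures (3.48 to 4.17 FPKM, control 8.30 FPKM), and Dbf4, which passed the rule at none (2.83 to 3.35 FPKM, control 5.29 FPKM). Of 7 CDK inhibitors 1 rose at all 4 pressures, 1 fell at all 4 and 5 did neither at any, with a median of -0.39. Cdkn1b (p27) rose to 36.1 to 39.6 FPKM under pressure against 17.5 FPKM in the control. Cdkn1c (p57) fell to 3.04 to 3.40 FPKM against 9.17 FPKM. Cdkn1a (p21) stood at 3.16 to 4.76 FPKM under pressure and 2.25 FPKM in the control. Over all genes 6.49% were higher at all 4 pressures.

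Of 20 S-phase checkpoint and repair genes 15 were measured, 0 fell and 0 rose at all 4 pressures, 13 did so at none, and the median was -0.27. Of 14 other genes of chromatin copying, all measured, 1 fell at all 4 pressures and 9 at none, with a median of -0.36. It was Nasp, a histone chaperone (2.87 to 3.92 FPKM under pressure, 9.51 FPKM in the control). The mitosis list differed more than the replication members. Of its 30 genes, all measured, 17 fell at all 4 pressures and 6 at none, with a median of -1.31. The 4 largest were Ccnb2 (9.77 to 15.1 FPKM under pressure, 56.3 FPKM in the control), Birc5 (4.19 to 6.48 FPKM, control 25.3 FPKM), Ccnb1 (4.15 to 7.15 FPKM, control 22.2 FPKM) and Nuf2 (1.21 to 2.36 FPKM, control 8.60 FPKM). Mki67, the proliferation antigen, fell at 3 pressures and stood at 7.13 FPKM at -160 mmHg and 4.20 to 4.37 FPKM at the other 3, against 13.5 FPKM in the control. The -160 mmHg library was the highest of the 4 pressures in all 30 mitosis genes, with counting intervals apart in 26 of them. It was the highest in 12 of 14 other chromatin copying genes, 19 of 26 other replication factors and 11 of 15 checkpoint genes, but in 14 of 32 other nucleotide supply genes, 16 of 28 G1/S regulators and 3 of 7 CDK inhibitors, against 25.4% of all genes.

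**Figure D4:**
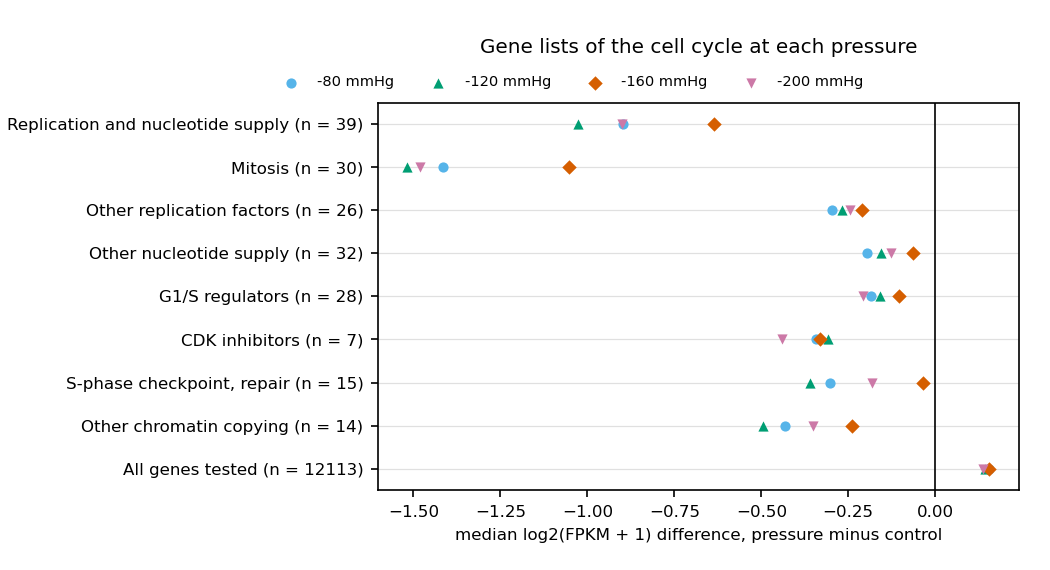
Median difference of log2(FPKM + 1) between each pressure library and the control, for the measured genes of each list and for all genes tested. The replication and mitosis lists lie farthest below 0, and the -160 mmHg diamond lies nearest to 0 in both, at -0.63 and -1.05.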

How the data were processed

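RNA of 5 cultures was sequenced, and the authors deposited FPKM, 1 value for each gene in each library. The tools listed are featureCounts 1.5.0-p3, HISAT2 and SAMtools, and the build listed is rn6 (rat), per the submitters' processing notes, but the gene IDs are mouse, and the mouse annotation was used here. Strand handling was not given in the sources used here. Symbols and exon lengths came from GENCODE M21 (54349 of 55401 IDs matched with their version, 55141 in any). FPKM times exon length was a whole multiple of 1 read in 98.8% of IDs (tolerance 0.01 reads), which gave reads and library totals. Columns of other samples numbered 0. Members and lists were chosen with earlier results of these data known.

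Comparisons used log2(FPKM + 1), a mean of at least 1 FPKM and a difference of at least 1, with no test. Counting intervals were exact Poisson intervals per library and Clopper-Pearson intervals for ratios. Reads carry no molecular identifiers, so intervals cover counting error only. All 40 members are named. Other genes were named if among the 4 largest past the rule at all 4 pressures in their list or fixed by name; 1 such gene is not reported here. Alternatives were other pseudocounts, filters, scalings, thresholds and an exact binomial test of reads. The functions were tested on simulated data. The software was scipy 1.17.1, numpy 2.4.6, matplotlib 3.10.9 and pandas 2.3.3 under Python 3.11.15.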

Additional observations from a re-analysis of the deposited data

How the results depend on the processing

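No paired analysis was possible because each condition had 1 library. With a pseudocount of 5 the members lower at -80, -120, -160 and -200 mmHg numbered 10, 8, 4 and 9. The shares of all genes were then 3.94%, 3.49%, 3.34% and 3.43%. Members lower at all 4 numbered 4, against 2.72% of all genes, and the median of the members was -0.52. With a 1.5-fold rule the counts at -80, -160 and -200 mmHg were 30, 20 and 28. The shares of all genes at these pressures were 15.4%, 14.001% and 14.1%. By this rule 20 members were lower at all 4, against 10.4% of all genes. An exact binomial test of the reads (Benjamini-Hochberg adjustment at 0.05), which compares libraries and not conditions, called 37, 37, 34 and 37 members lower. The shares of all genes were 30.3%, 29.2%, 29.2% and 29.8%. The test called 34 members lower at all 4, against 23.96% of all genes. Without the -160 mmHg library 15 members were lower at every remaining pressure, and the median was -0.91. A rule over fewer pressures is easier to pass, and the share of all genes is not given for it. The other alternatives kept the counts within 1.5 times and the medians within 0.17. They were a pseudocount of 0.1, no filter, a mean of at least 5 FPKM, 3 other scalings, the 50 most abundant genes left out, and, added after the data were seen, the trend with exon length removed and the 8 members left out that share at least 10% of their exon bases. Under scaling to a trimmed mean the median of all genes moved by -0.15 to -0.14, and the share of calls that were higher was 44.3% to 44.9%, in place of 57.9% to 61.4%. The -160 mmHg library was the highest of the 4 pressures in 29 to 31 of 39 members under the scalings and with the 50 genes left out. The share of all genes was 22.7% to 23.6%. The interval of that library lay apart in 10 members at 99%, against 1.16% of all genes. The share of members with an E2F core was 60.6% in a window from 100 bases before the start and 42.4% on the strand of the gene alone, in place of 69.7%. Depth limits Gins1, Gins3, Orc1, Cdc6 and Fen1, with 6 to 190 reads per library.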

Other observations

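Processed pseudogenes can share reads with their parent genes. Of the 40 members 6 had a stretch of at least 500 nt at 95% identity or more in a gene with which they share no exon. Pcna-ps2 matched Pcna over 781 nt at 99.2% identity and stood at 1.31 to 1.54 FPKM under pressure and 3.13 FPKM in the control, so that it differed in the same direction as Pcna. Gm5487 matched Mcm7 over 2157 nt at 97.7% and stood at 0.0557 to 0.168 FPKM under pressure and 0.378 FPKM in the control. The copies of Cdc6 (Gm9430) and Tyms (Tyms-ps) were listed at 0 in all 5 libraries, and those of Rfc5 (Gm12870) and Uhrf1 (Gm5648) reached at most 0.237 and 0.0685 FPKM. Gins4, whose level was far above that of the other GINS genes, had no such copy. How reads were divided between genes and copies was not given in the sources used here.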
